A study of Mus musculus with 11 samples.

Results

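Atf5, Asns and 8 further genes of the amino acid stress response were followed in mouse liver and spleen after long oral treatment with Curaxin-137. The members were all array probes whose platform gene symbol was Atf5, Atf4, Asns, Ddit3, Trib3, Chac1, Fgf21, Psat1, Phgdh or Eif4ebp1, which gave 10 genes with 16 probes, out of 19057 named genes with 45281 probes on the array. Atf5 and Asns were chosen from their liver values at 0.2 mg/ml, which stood below those of control and of 0.1 mg/ml. Every liver group thus entered the choice, so their values in comparisons that use liver arrays are given as a description with no test. All mice carried a Her2/neu transgene, the oncogene model of mammary cancer named in the study title, and neither the promoter of the transgene nor the strain is given in the sources used here. Their drinking water held no drug (control), 0.1 or 0.2 mg/ml of Curaxin-137. Treatment lasted 10 weeks and ended at 14 weeks of age, having begun at 4. Curaxins are small molecules that bind DNA and trap the histone chaperone FACT on chromatin. Each liver group held 2 samples, numbered 1 and 25 in control, 43 and 55 under 0.1 mg/ml, and 73 and 85 under 0.2 mg/ml. Of the spleens, number 8 was the lone control, 56 and 32 had received 0.1 mg/ml, and 62 and 62_86, whose labels share a number, had received 0.2 mg/ml.

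When amino acids run short, or unfolded protein or other stress builds up, kinases phosphorylate the initiation factor eIF2, which slows general protein synthesis while the transcription factors ATF4 and ATF5 are translated more. ATF4 binds DNA with C/EBP partners and turns on genes that make, import and charge amino acids, so that mRNAs such as Asns serve as readouts of the pathway. The arrays read mRNA only, and the translational step on Atf4 and Atf5 is not visible in them.

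Values are log2 intensities after background correction and normalization within each tissue, and a probe counts as detected on an array where its deposited detection p-value was under 0.05. A value near 4.2 is at background level on these arrays. A probe was tested in a tissue where it was detected on at least 2 of its arrays, which held for 14 of the 16 member probes in liver (all 10 genes) and 13 in spleen (9 genes, without Chac1). Phgdh was kept in liver through its 2 control arrays alone and the second Asns probe through both controls and 1 array at 0.1 mg/ml, and Fgf21 through control and 0.1 mg/ml, so a lower value at 0.2 mg/ml is built into their selection. Levels of different probes are not compared with each other. Between 35.8% and 43.2% of probes were detected per array, and precision is limited by how few arrays there are. Nothing in the labels ties a sample to a separate mouse beyond its number, so p-values cover only the variation among the arrays at hand, which may be technical. Hepatocyte markers set the tissues apart, with 7 to 8 of 9 on the array detected in each liver (mean log2 level 11.2 to 11.6) and 3 to 4 in each spleen (4.86 to 5.43), while the 4 B cell markers kept in spleen were all detected there and at most 1 in any liver. Liver control replicate 25 had a mean neutrophil marker level of 8.30, against 4.46 to 5.59 in the other livers, and values that change much without it are named below.

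In liver, Atf5, which encodes the second of the stress-translated factors, read 9.87 and 9.96 in control, 10.13 and 9.64 at 0.1 mg/ml, and 8.37 and 7.96 at 0.2 mg/ml. Both arrays at 0.2 mg/ml lay below all 4 others, and control and 0.1 mg/ml overlapped. The difference of 0.2 mg/ml minus control was -1.75 (SE 0.22), that is 3.36-fold lower, and that of 0.2 minus 0.1 mg/ml was -1.72 (SE 0.22). Leaving out control replicate 25 gave -1.71. In bulk tissue, fewer cells of a type and less RNA per cell cannot be told apart.

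Asns encodes asparagine synthetase, which makes asparagine from aspartate and glutamine. Its brightest probe (ILMN_2643513) read 6.23 and 5.82 in control livers, 6.28 and 5.58 at 0.1 mg/ml, and 4.29 and 4.48 at 0.2 mg/ml, where 1 of the 2 arrays detected it. Again both arrays at 0.2 mg/ml were below all others, and control and 0.1 mg/ml overlapped. The difference of 0.2 mg/ml minus control was -1.64 (SE 0.25), 3.11-fold lower, and of 0.2 minus 0.1 mg/ml -1.54 (SE 0.25). With an offset of 50 in place of 16 added before the logarithm, the difference from control was -0.85. A second Asns probe (ILMN_3006123) was undetected on both arrays at 0.2 mg/ml and was at least 1.32-fold lower there than in control. The third (ILMN_2636755) was detected on 1 liver array only and was not tested in liver.

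**Figure D1:**
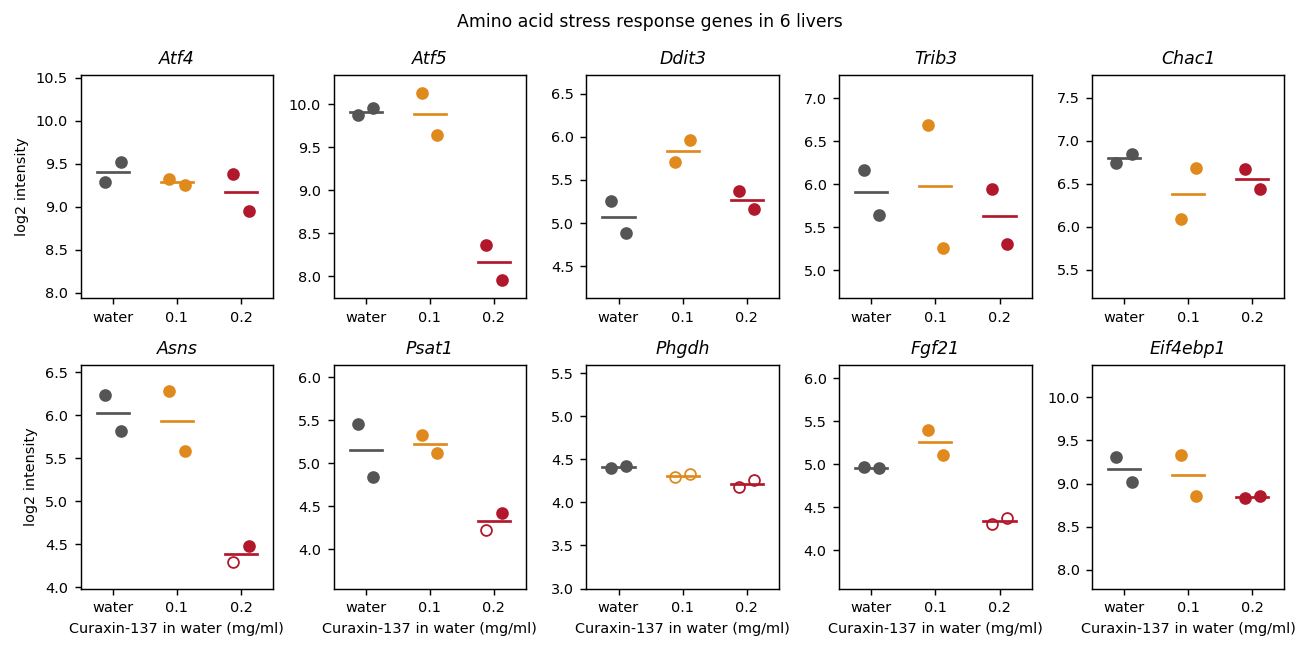
Log2 intensity (vertical axes, each of its own range) of the brightest probe of each of the 10 genes in 6 livers against the Curaxin-137 concentration of the drinking water; points are arrays, open where the probe was undetected, and lines are group means. Atf5, Asns, Psat1 and Fgf21 sit lower in both livers at 0.2 mg/ml than in the other 4, and Ddit3 is highest at 0.1 mg/ml.

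The other transcription factors of the pathway did not share one pattern. Atf4, the central activator, read 9.29 and 9.52 in control, 9.32 and 9.25 at 0.1 mg/ml and 9.38 and 8.95 at 0.2 mg/ml on its brighter probe (ILMN_2642681), and the 3 groups overlapped. The difference of 0.2 mg/ml minus control was -0.24 (SE 0.19), and it was -0.02 without replicate 85 and -0.45 without replicate 73. A dimmer Atf4 probe (ILMN_1223734) read 6.04 and 6.0 in control, 5.38 and 5.76 at 0.1 mg/ml and 5.53 and 5.37 at 0.2 mg/ml, so that control was highest (0.2 mg/ml minus control -0.57, SE 0.18). Ddit3 encodes CHOP, a stress-induced C/EBP family factor linked to cell death. It read 5.26 and 4.88 in control, 5.71 and 5.97 at 0.1 mg/ml and 5.37 and 5.16 at 0.2 mg/ml, so that the lower dose stood highest and the groups at 0.2 mg/ml and control overlapped. Its second probe (ILMN_2927373) read 5.08 and 4.59 in control, 5.08 and 6.0 at 0.1 mg/ml and 4.91 and 4.92 at 0.2 mg/ml, with replicate 55 at the top in both probes.

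Trib3 is a pseudokinase induced by ATF4 and CHOP that feeds back to restrain them, and Chac1 is an enzyme that breaks down glutathione. Trib3 varied as much within groups as between them: 6.17 and 5.64 in control, 6.69 and 5.26 at 0.1 mg/ml, and 5.95 and 5.31 at 0.2 mg/ml (ILMN_1225528). Its difference of 0.2 mg/ml minus control was -0.28 (SE 0.43), and 0.04 without replicate 85. Chac1 read 6.74 and 6.85 in control, 6.09 and 6.68 at 0.1 mg/ml and 6.67 and 6.44 at 0.2 mg/ml, a difference of -0.24 (SE 0.22) for 0.2 mg/ml minus control, or -0.12 without replicate 85. Its arrays at 0.2 mg/ml were both below control and overlapped with 0.1 mg/ml. Of the other Trib3 probes, ILMN_1252762 gave -0.33 (SE 0.25) for the same comparison and ILMN_1244279 was undetected on every array.

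Psat1 and Phgdh encode enzymes of serine synthesis. Psat1 read 5.46 and 4.84 in control, 5.33 and 5.12 at 0.1 mg/ml and 4.23 and 4.42 at 0.2 mg/ml, with 1 of the 2 arrays at 0.2 mg/ml undetected and both below all others. The difference of 0.2 mg/ml minus control was -0.83 (SE 0.22), and without control replicate 1 it was -0.51. Phgdh was low in all livers, between 4.18 and 4.42, and was detected in the 2 controls alone. Fgf21, a hormone that the liver secretes in fasting and amino acid shortage, read 4.97 and 4.95 in control and 5.40 and 5.11 at 0.1 mg/ml, and was undetected on both arrays at 0.2 mg/ml (4.31 and 4.37). It was thus at least 1.47-fold lower at 0.2 mg/ml than in control and at least 1.80-fold lower than at 0.1 mg/ml. Eif4ebp1, a repressor of cap-dependent translation, read 9.31 and 9.02 in control, 9.33 and 8.86 at 0.1 mg/ml and 8.83 and 8.85 at 0.2 mg/ml, a difference of -0.33 (SE 0.20) for 0.2 mg/ml minus control, or -0.18 without control replicate 1.

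Over the 14 member probes kept in liver, 10 had both arrays at 0.2 mg/ml below both controls and 0 had both above. Of all 18221 probes kept, 19.4% lay below and 19% above in this way. The 10 include Atf5 and the brightest Asns probe, chosen for this pattern. They also include Phgdh, Fgf21 and the second Asns probe, undetected at 0.2 mg/ml and kept through the other groups. A lower value of these probes was built into the selection, and it enters the counts and medians given here. With a detection p under 0.01 required on every array, which left fewer member probes and fewer probes in all, 4 member probes were lower, Atf5 among them. The share over all probes was not taken under this filter, so the 4 cannot be set against the 10. In 0.2 minus 0.1 mg/ml, 9 member probes were lower without overlap and 0 higher, where 23.2% of all probes were lower and 23.6% higher. The median difference of the member probes was -0.33 against control and -0.41 against 0.1 mg/ml, beside medians of -0.0028 and -0.00049 over all probes. These comparisons chose Atf5 and Asns, several probes share a gene, and no probe of the whole table passed an adjusted p of 0.05 in either (limma; 0%, with 1576 probes, or 8.65%, and 1640, or 9%, at an unadjusted p under 0.05). The count against control was 828 without control replicate 25 and 264 without control replicate 1, and against 0.1 mg/ml 273 and 254. Marker levels of several cell types also differed in the comparison with control. Hepatocyte markers were higher at 0.2 mg/ml for 6 of 7 (4 without overlap), with means of 11.55 and 11.44, against 11.20 and 11.38 in control. All 11 macrophage markers were higher at 0.2 mg/ml (5 without overlap), and their mean level was 6.74 and 7.17 at 0.2 mg/ml, against 6.23 and 6.75 in control. Endothelial markers were higher for 6 of 8 (means 6.54 and 6.55, against 6.34 and 6.14) and fibroblast and stellate markers for 6 of 8 (6.43 and 6.43, against 6.19 and 5.92). All 5 neutrophil markers kept were lower in group mean, 1 of them without overlap. Their mean level was 5.36 and 5.59 at 0.2 mg/ml, against 4.79 in control replicate 1 and 8.30 in control replicate 25. Both livers at 0.2 mg/ml were thus above control replicate 1. Of the mammary and epithelial markers only 2 were kept, both lower without overlap (means 8.97 and 8.63, against 9.22 and 9.40). All 4 pancreatic acinar markers kept were higher (2 without overlap), as were 3 of 4 T cell markers (2 without overlap). The part of these cell types in the members' values was not tested.

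The lower dose is compared with the same 2 control arrays. At 0.1 mg/ml minus control, 0 of the 14 member probes passed, 3 were lower and 2 higher without overlap, and no probe of the 18221 passed (0 of them, or 0%; 741, or 4.07%, had an unadjusted p under 0.05; 411 passed without control replicate 1 and 29 without control replicate 25), while 15.2% of all probes were lower and 14.9% higher without overlap. Of the member probes, 3 of 14 had an unadjusted p under 0.05 (Ddit3 and Atf4). With 1 array left out the counts without overlap reached 10 lower (without replicate 43) and 7 higher (without replicate 55). More probes separate when 1 array is set against 2, and the share over all probes was not taken for these counts. In spleen, where the control is 1 array, 34.2% of all probes were higher and 32.6% lower at 0.1 mg/ml. Ddit3 was 0.76 higher (SE 0.19, adjusted p = 0.992), and it passed without control replicate 1, at 0.94 (adjusted p = 0.0359). Fgf21 was 0.30 higher (SE 0.17, adjusted p = 0.992). Atf5 differed by -0.03 (SE 0.22) and Asns by -0.09 (SE 0.25). Both groups of this comparison stood above 0.2 mg/ml in the choice of these 2 genes, so no p is given for them.

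Sequence upstream of the gene is shown for 3 members, Asns and Fgf21, which were lower at 0.2 mg/ml, and Chac1, whose difference was within 0.24, because their windows hold the letters of the element that ATF4 and C/EBP factors bind. The motif searched was TGATGNAA on both strands, with no other motif searched, in RefSeq windows of 250 bases before and 50 after the annotated start (GRCm38.p6). Each stretch below holds the 250 bases before the start, 5′ to 3′ on the strand of the gene, with the motif or its reverse complement in capitals. Asns lies at chr6:7693210-7693459 on the minus strand, Fgf21 at chr7:45615491-45615740 on the minus strand and Chac1 at chr2:119350992-119351241 on the plus strand.
Asns: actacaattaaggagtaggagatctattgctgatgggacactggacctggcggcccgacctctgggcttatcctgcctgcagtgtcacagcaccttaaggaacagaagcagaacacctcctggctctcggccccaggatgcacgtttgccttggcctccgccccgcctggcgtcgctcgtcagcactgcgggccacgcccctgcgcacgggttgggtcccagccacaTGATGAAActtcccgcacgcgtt
Fgf21: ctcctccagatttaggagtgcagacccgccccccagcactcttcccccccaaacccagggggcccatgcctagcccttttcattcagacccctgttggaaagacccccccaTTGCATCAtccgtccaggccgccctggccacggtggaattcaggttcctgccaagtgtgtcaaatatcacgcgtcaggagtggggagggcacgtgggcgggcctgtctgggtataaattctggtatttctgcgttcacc
Chac1: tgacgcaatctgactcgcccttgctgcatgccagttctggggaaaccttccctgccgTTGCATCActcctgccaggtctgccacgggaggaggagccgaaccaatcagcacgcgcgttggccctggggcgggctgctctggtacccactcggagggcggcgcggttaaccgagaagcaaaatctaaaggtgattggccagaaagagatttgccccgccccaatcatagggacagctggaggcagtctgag
Counted from the start, the match began at base -23 in Asns, -139 in Fgf21 and -193 in Chac1, and Trib3 had one beginning at base 15 after the start. The windows of Atf5 (2), Atf4, Ddit3, Psat1 (2) and Phgdh held none, and Eif4ebp1 had no window in the table. Thus 4 of the 9 members with a window held the motif, 3 of them before the start, where 3.97% of all 32851 windows held it anywhere and 3.45% before the start. Members with the motif and members without it both had probes below both control livers at 0.2 mg/ml. A link between the motif and the values was not tested. A match is a description of these letters and not a bound site.

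The wider pathway was read from 6 lists, of which no gene passed the adjusted threshold in any liver dose comparison. The aminoacyl-tRNA synthetases, which charge tRNAs with amino acids and many of which are ATF4 targets, were lower at 0.2 mg/ml than in control for 10 of 13 genes (8 without overlap, 1 higher without overlap), with a median of -0.26 beside 0.01 over all named genes, of which 47.3% were lower, while 19.4% of all probes were lower without overlap and 19% higher. Aars, for alanine, read 9.21 and 9.07 at 0.2 mg/ml, against 9.82 and 9.88 in control, a difference of -0.72 (SE 0.15). Sars, for serine, differed by -0.47 (SE 0.15), Mars1, for methionine, by -0.54 (SE 0.20) and Tars, for threonine, by -0.82 (SE 0.29). Without control replicate 25 Tars differed by -0.41, and without control replicate 1 Mars1 by -0.32. At 0.1 mg/ml the same list had 7 genes higher and 6 lower, with a median of 0.03.

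Other ATF4 target genes were mixed at 0.2 mg/ml: 12 of 19 were lower than control and 7 higher, with a median of -0.08. Mthfd2, of mitochondrial folate metabolism, read 4.41 and 4.57 at 0.2 mg/ml, against 5.03 and 5.47 in control (difference -0.76, SE 0.19), and the receptor gene Vldlr differed by -0.70 (SE 0.20; -0.44 without replicate 85). The glycine transporter gene Slc6a9 differed by -0.60 (SE 0.28), with overlap, and by -0.24 without control replicate 1, -0.29 without replicate 73, -0.92 without replicate 85 and -0.96 without control replicate 25. Gpt2, an alanine aminotransferase, went the other way, with 10.79 and 10.86 at 0.2 mg/ml, against 10.01 and 10.35 in control (difference 0.64, SE 0.17). The upstream list of eIF2 kinases, eIF2 and its exchange factor had 7 of 13 genes lower (median -0.16). In it Eif2b4 and Eif2b3, subunits of the exchange factor eIF2B, differed by -0.46 (SE 0.21) and -0.39 (SE 0.18), and Eif2ak2, the kinase activated by double-stranded RNA, by 0.26 (SE 0.25). Without control replicate 25 these became -0.22 for Eif2b4, -0.20 for Eif2b3 and 0.62 for Eif2ak2. Without control replicate 1 Eif2b4 was at -0.70 and Eif2ak2 at -0.10. The bZIP partners had 9 of 12 genes lower (median -0.10).

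The 2 protein folding branches stood elsewhere. Mitochondrial chaperones and proteases were higher at 0.2 mg/ml than in control for 8 of 9 genes (3 without overlap, where 19% of all probes were higher in this way), with a median of 0.15. At 0.1 mg/ml 6 of 9 were higher than control, with a median of 0.16, and for 0.2 minus 0.1 mg/ml 5 of 9 were lower, with a median of -0.03. Hspe1 read 9.66 and 9.57 at 0.2 mg/ml, against 9.04 and 9.12 in control (difference 0.53, SE 0.15), and its chaperonin partner Hspd1 read 10.90 and 10.95, against 10.43 and 10.38 (difference 0.52, SE 0.15). Chaperones of the endoplasmic reticulum were split at 0.2 mg/ml, with 9 of 16 higher and a median of 0.03, and at 0.1 mg/ml 11 of 16 were higher, with a median of 0.17. Among these, Sdf2l1, Hyou1 and Creld2 were 0.74 (SE 0.24), 0.65 (SE 0.25) and 0.60 (SE 0.29) higher at 0.1 mg/ml than in control, each with an adjusted p of 0.992. In all 3 the highest liver was replicate 55, which was also highest for Ddit3 (Creld2 8.62, against 7.63 in replicate 43). Without replicate 55 the differences were 0.40 for Sdf2l1, 0.34 for Hyou1 and 0.11 for Creld2, and without replicate 43 Creld2 was at 1.09.

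**Figure D2:**
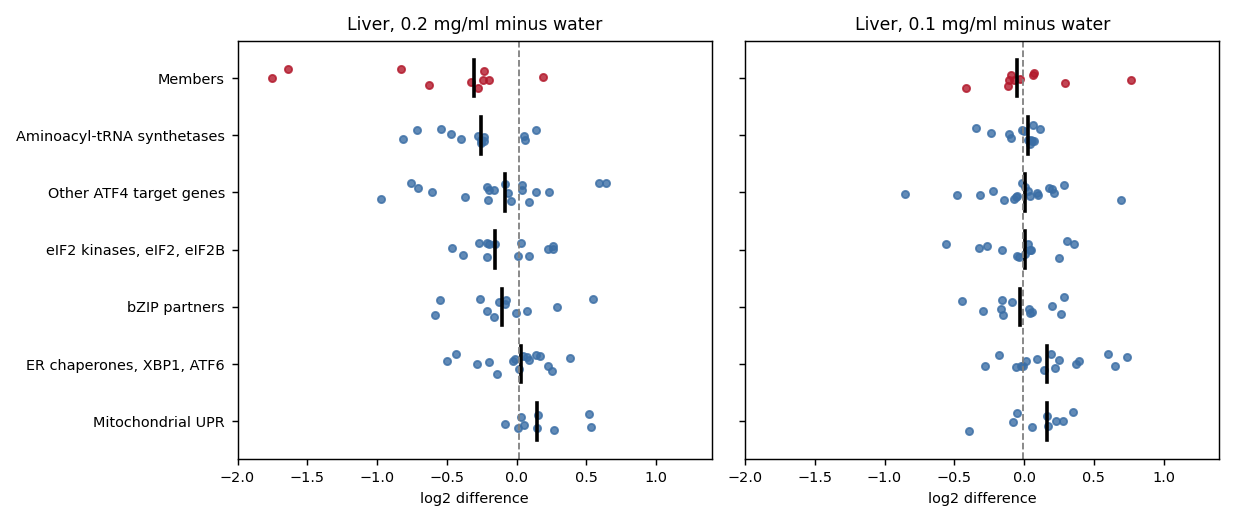
Log2 difference (horizontal axis) of each gene of the members and of 6 pathway lists in liver, 0.2 mg/ml minus control (left) and 0.1 mg/ml minus control (right), both against the same control arrays; each point is a gene, black bars are list medians and the dashed line is the median of all named genes. At 0.2 mg/ml the members and the aminoacyl-tRNA synthetases lie left of the dashed line in median (-0.30 and -0.26, 1 probe per gene), and the mitochondrial list lies right of it (0.15).

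For each of Atf5 and Asns, the 5 genes with the nearest profile were sought over the 6 livers, by the root mean square difference of values centred on their mean, among 947 named genes whose highest and lowest liver differed by at least 1 on the log2 scale. Atf5 and Asns were themselves chosen for the same pattern over these livers, which places them near each other. Asns lay at 0.25 from Atf5, beside Pparg (0.26), a nuclear receptor of lipid storage, Cyp3a11 (0.31), a drug-metabolising cytochrome, Ddc (0.38), an amine-forming decarboxylase, and Cspg5 (0.39), a proteoglycan gene. Nearest to Asns were Pparg (0.14), Cyp3a11 (0.26), Sel1l3 (0.31) and Cspg5 (0.33). All share the same 6 arrays, and in those outside the set the differences of 0.2 mg/ml minus control ran between -1.0 for Cspg5 and -1.56 for Pparg, with Cyp3a11 at -1.41.

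In spleen no member probe passed an adjusted p of 0.05 in any dose comparison. Atf5 read 6.32 in the control spleen, 6.63 and 6.39 at 0.1 mg/ml and 5.98 and 6.51 at 0.2 mg/ml, so that the group at 0.2 mg/ml spanned the control. Its difference of 0.2 mg/ml minus control was -0.08 (SE 0.32, adjusted p = 1.000), and it was 0.19 when replicate 62 was left out. Against 0.1 mg/ml it was -0.26 (SE 0.26, adjusted p = 0.828), and 0.00087 without replicate 62.

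Asns in spleen was highest in 1 array. It read 6.99 in control, 7.57 and 9.95 at 0.1 mg/ml and 7.45 and 7.59 at 0.2 mg/ml, where the value of 9.95 is replicate 32. The dimmer Asns probes were also highest there, ILMN_3006123 with 4.84 in control, 5.86 and 7.62 at 0.1 mg/ml and 5.45 and 5.82 at 0.2 mg/ml, and ILMN_2636755 with 5.16, against 4.13 to 4.40 in the other 4 spleens. The difference of 0.1 mg/ml minus control was 1.77 (SE 0.84, adjusted p = 0.537), and 0.59 without replicate 32. For 0.2 minus 0.1 mg/ml it was -1.24 (SE 0.68, adjusted p = 0.653), and -0.05 without replicate 32. For 0.2 mg/ml minus control the difference of the first probe was 0.53 (SE 0.84) and of the second 0.80 (SE 0.65), both with an adjusted p of 1.000. With replicate 32 or 56 left out, the only spread within a group is that between 62 and 62_86, whose labels share a number, so no p is given for such values. Without replicate 32 the second probe differed from control by 1.07 at 0.1 mg/ml and 0.84 at 0.2 mg/ml. Without replicate 56, which left replicate 32 alone at 0.1 mg/ml, the first probe gave 2.93 for 0.1 mg/ml minus control and -2.43 for 0.2 minus 0.1 mg/ml.

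Replicate 32 also stood apart in markers of other cells. The 10 neutrophil and granulocyte precursor markers, all detected on all 5 spleens, averaged 9.45 there, against 6.52 to 7.55 in the other spleens. Mpo and Elane, enzymes of granule-forming precursors, read 11 and 8.25 in replicate 32, against 7.59 to 8.20 and 4.91 to 6.15 in the others. The 5 erythroid markers kept averaged 12.4, against 10.6 to 11.2, with Klf1, a factor of red cell precursors, at 10.80, against 7.05 to 8.62, and Tfrc, the transferrin receptor, at 11.63, against 8.83 to 9.69. B cell markers were lowest there, at 9.12, against 9.61 to 10.0. Of 15 pancreatic acinar markers on the array, 3 to 4 were detected in each spleen, at a mean of 4.92 to 5.32 over the 4 kept. Before normalization replicate 32 had the lowest mean signal of the spleens (94.7, against 99.2 to 218.7). It also had the lowest share of probes detected (40.0%, against 41.5% to 43.2%). The deposited Asns signal (ILMN_2643513) was still highest there, at 631.5, against 400.5 in replicate 56. The part of the cell types or of the array signal in the Asns value of replicate 32 was not tested.

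**Figure D3:**
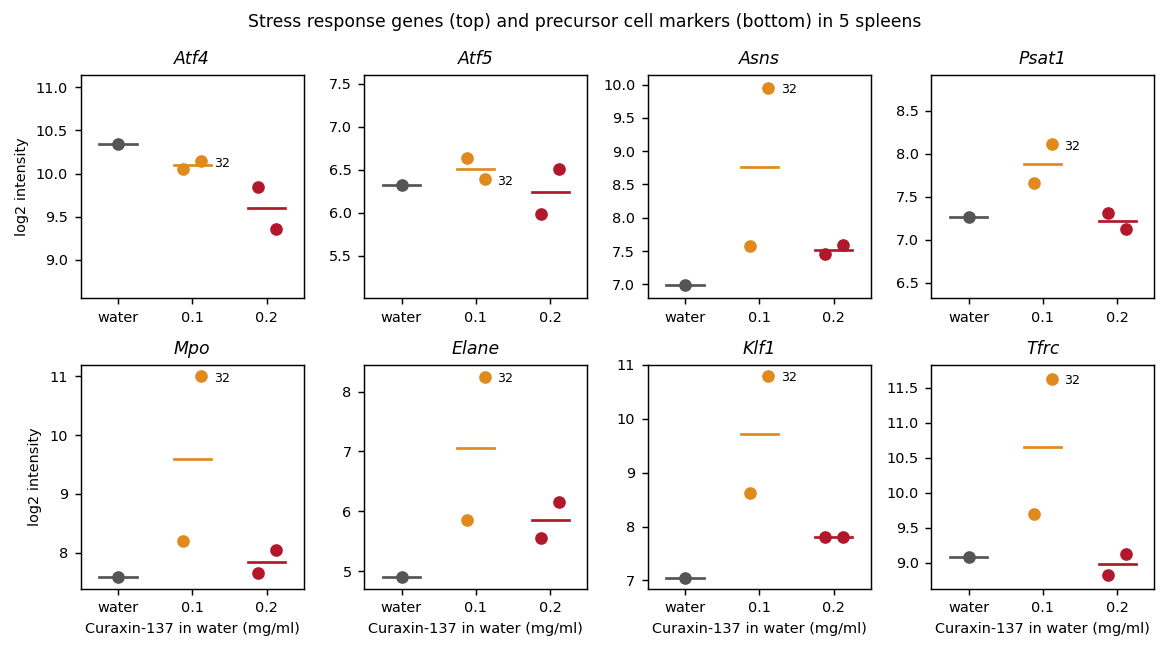
Log2 intensity (vertical axes, each of its own range) in 5 spleens of 4 stress response genes (top) and of 4 markers of granulocyte and red cell precursors (bottom) against the Curaxin-137 concentration of the drinking water; points are arrays, lines are group means, and replicate 32 is marked. In these normalized values replicate 32 is the highest spleen for Asns, Psat1, Mpo, Elane, Klf1 and Tfrc, and not for Atf4 or Atf5.

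The remaining members moved within narrower limits in spleen. Psat1 read 7.27 in control, 7.66 and 8.11 at 0.1 mg/ml and 7.31 and 7.13 at 0.2 mg/ml, with replicate 32 highest again. In the signals before normalization replicate 56 was the highest instead (425.4, against 179.7 in replicate 32). Psat1 differed by 0.62 for 0.1 mg/ml minus control (SE 0.30, adjusted p = 0.552) and by -0.66 for 0.2 minus 0.1 mg/ml (SE 0.25, adjusted p = 0.556), and by 0.39 and -0.44 without replicate 32. Without replicate 56 these were 0.82 and -0.86. The brighter Atf4 probe read 10.34 in control, 10.05 and 10.14 at 0.1 mg/ml and 9.84 and 9.36 at 0.2 mg/ml, the lowest group. Its difference of 0.2 mg/ml minus control was -0.74 (SE 0.30, adjusted p = 0.915), and it ran from -0.98 to -0.50 under the alternatives. The dimmer Atf4 probe read 5.92 in control, 5.68 and 5.97 at 0.1 mg/ml and 5.72 and 5.49 at 0.2 mg/ml. Its groups at the 2 doses overlapped, and 0.2 mg/ml minus control was -0.31 (SE 0.29). Eif4ebp1 was lowest in the control spleen, at 7.47, with 7.85 and 8.24 at 0.1 mg/ml and 7.99 and 7.96 at 0.2 mg/ml, a difference of 0.51 at 0.2 mg/ml (SE 0.29, adjusted p = 1.000) and of 0.58 at 0.1 mg/ml (SE 0.29, adjusted p = 0.557), the second being 0.38 without replicate 32. Ddit3 was likewise lowest in control, at 6.5, with 6.89 and 6.99 at 0.1 mg/ml and 6.71 and 6.87 at 0.2 mg/ml. Phgdh stayed between 4.91 and 5.21, Trib3 between 4.45 and 4.83 and Fgf21 between 4.26 and 4.69, the last detected in control and 1 array at 0.1 mg/ml.

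With 1 control array, groups that do not overlap are common in spleen. At 0.2 mg/ml minus control, 7 of 13 member probes were higher and 3 lower than the control array, where 36.4% of all 20364 probes kept were higher and 37.9% lower, and 0% passed (1101, or 5.41%, had an unadjusted p under 0.05). At 0.1 mg/ml minus control 9 were higher and 2 lower, beside 34.2% and 32.6% of all probes, and 0% passed (1972 unadjusted, 9.68%). In 0.2 minus 0.1 mg/ml, 5 were lower and 0 higher, beside 19.7% and 20.5% of all probes, of which 1, or 0.00491%, passed (1763 unadjusted, 8.66%). With either array at 0.1 mg/ml left out, between 937 and 2932 probes passed in these comparisons, all on the spread between 62 and 62_86 alone. With 1 array left out the members lower in 0.2 minus 0.1 mg/ml reached 10 (without replicate 56) and 9 (without replicate 62_86), and those lower than control 5 at 0.2 mg/ml (without replicate 62) and 4 at 0.1 mg/ml (without replicate 32). The share over all probes was not taken for these counts. Those against control set 1 array against 1, where no probe can overlap. Several member probes belong to the same gene, 3 of the 9 higher at 0.1 mg/ml than in control being Asns. Fgf21 was kept in spleen through the control and replicate 56 alone, so a lower value at 0.2 mg/ml is built into its selection. The Asns probe ILMN_2636755 was kept through replicates 32 and 62 alone, so a value above control is built into its selection. Both enter the counts given here.

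The response at 0.2 mg/ml in liver minus that in spleen was -1.46 for Atf5 (SE 0.37), -2.41 for the first Asns probe (SE 1.08) and -1.0 for Psat1 (SE 0.40), from 1 fit of all 11 arrays. These contain the liver comparison that chose Atf5 and Asns and are given without a test. Of all 23604 probes, 0.0381% passed, among them 0 of the members, and in the response at 0.1 mg/ml 0% passed.

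The tissues were compared directly. Liver minus spleen was taken as the mean of the 3 dose groups of each tissue over all 11 arrays normalized together, and 12 of 15 member probes passed, 6 higher and 6 lower in liver, where 59.5% of all 23604 probes passed (25.9% higher, 33.6% lower). This mean contains the liver values at 0.2 mg/ml that chose Atf5 and Asns. A fit with both 0.2 mg/ml groups left out was an alternative added after the data were seen. Its control and 0.1 mg/ml livers also entered that choice, as the high side. Both fits therefore describe Atf5 and Asns without a test, though the counts include them. In the fit of 7 arrays 10 of 15 member probes passed, from 9 genes without Asns, where 51.5% of all 21848 probes passed. Dividing each array by its 75th percentile signal, without quantile steps, moved the median of all probes to 0.25, against -0.05 otherwise, and split the calls into 7218 higher of 12915, against 6110 of 14041.

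Atf5 ran between 8.16 and 10.07 in the 6 livers with a median between replicates 55 (9.64) and 1 (9.85), against 5.68 to 6.33 in the 5 spleens, with no overlap even at 0.2 mg/ml. The difference was 3.31 (SE 0.14, 9.89-fold), and 3.77 without the 0.2 mg/ml groups, both given as a description. Chac1 was detected in all livers (6.39 to 7.14) and in 0 of 5 spleens, at least 5.74-fold higher in liver. Its probe was kept through the liver arrays alone, so a higher value in liver is built into its selection. Its place among the probes passing is therefore given no weight, and no p is given. Eif4ebp1, at 8.94 to 9.36 in liver against 7.18 to 8.01 in spleen, was higher by 1.54 (SE 0.12, adjusted p = 3.24e-06), and Trib3, at 5.55 to 6.99 against 4.39 to 4.67, by 1.62 (SE 0.26, adjusted p = 0.000437). Fgf21 was higher by 0.64 (SE 0.10, adjusted p = 0.000264), with overlap, since both livers at 0.2 mg/ml and 3 spleens did not detect it.

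The biosynthetic enzymes ran the other way. Psat1, at 4.24 to 5.76 in liver against 6.84 to 7.87 in spleen, differed by -2.07 (SE 0.16, adjusted p = 2.41e-06). Asns, at 4.32 to 6.58 in liver against 6.70 to 10.01 in spleen, differed by -1.85 (SE 0.43), and the second probe by -0.81 (SE 0.32). Without the 0.2 mg/ml groups these were -1.41 and -0.67, again given as a description. Phgdh was detected in all 5 spleens and in 2 of 6 livers and differed by -0.52 (SE 0.09, adjusted p = 0.000682), which became -0.24 (adjusted p = 0.208) under 75th percentile scaling. Ddit3 was lower in liver on both probes, with differences of -0.76 (SE 0.12, adjusted p = 0.000323) and -0.79 (SE 0.20, adjusted p = 0.00640). The second did not pass without the 0.2 mg/ml groups (-0.71, adjusted p = 0.0873).

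The probes of Atf4 disagreed. The brighter one differed by -0.77 (SE 0.13, adjusted p = 0.000625), and by -0.10 under 75th percentile scaling (adjusted p = 0.647), while the dimmer one was higher in liver by 0.49 (SE 0.11, adjusted p = 0.00434). No tissue direction is given for Atf4.

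**Figure D4:**
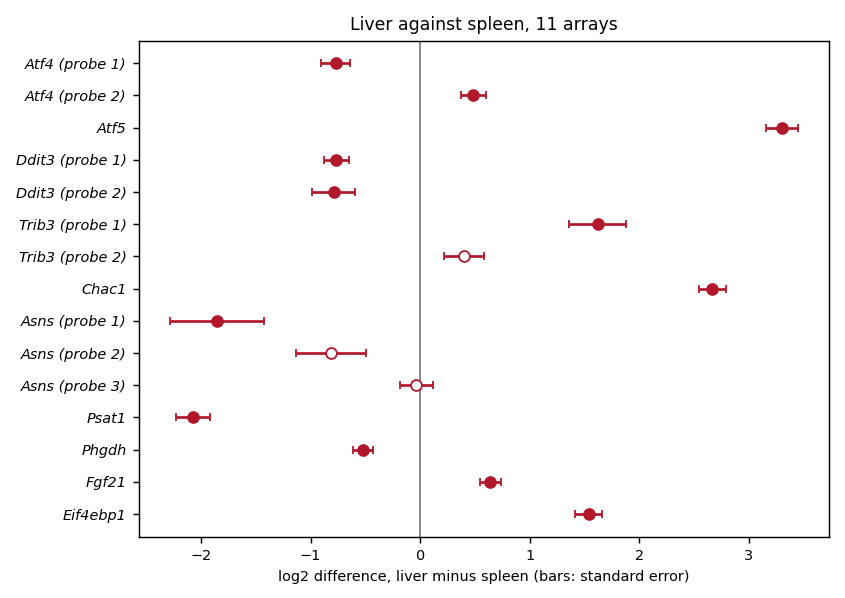
Log2 difference of liver minus spleen (horizontal axis, with standard errors) for the 15 member probes kept over all 11 arrays; filled points had an adjusted p under 0.05 with all 11 arrays, which for Asns and 1 Ddit3 probe was lost without the 0.2 mg/ml groups, and probes of a gene are numbered by their mean level in liver. Atf5, Chac1 (kept through its liver arrays alone), Trib3 and Eif4ebp1 lie right of 0 (higher in liver). Psat1, Asns, Phgdh and Ddit3 lie left of it, and the 2 Atf4 probes lie on opposite sides. Filling of the Atf5 and Asns points is no test, since their liver values chose them.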

How the data were processed

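Total RNA from frozen liver and spleen was amplified, labelled with biotin and hybridised to Illumina mouse bead arrays, per the labels' protocols, 1 array per sample. The deposited intensities are probe signals from GenomeStudio 1.6.0, per the submitters' processing notes, on a linear scale. Each signal has a deposited detection p-value, per the file headers. The deposited normalized table holds log2 values, which equalled the log2 signals after quantile normalization over all 11 arrays within 4.9965e-09. They were used as an alternative.

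Signals were processed per tissue with neqc in limma 3.58.1 (R 4.3.3): normexp background correction, offset 16, quantile normalization and log2. Both tissues were processed together for differences between them. A probe was kept if 2 or more of the arrays fitted had its detection p-value below 0.05: 18221 in liver, 20364 in spleen and 23604 together. Models with a mean for every group used lmFit and eBayes, with Benjamini-Hochberg adjustment at 0.05 over all probes kept. Residual degrees of freedom were 3, 2 and 5. Where a group was undetected on all its arrays, a fold is a lower bound, with each array at no less than the lowest value of any detected probe. Symbols came from the platform annotation, with 34885 probes of 1 symbol. List counts and medians use the probe of each gene with the highest mean in the tissue. The steps were tested on simulated data.

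The members and lists were chosen with earlier results of these data known. Every member is named, with up to 4 genes per pathway list by smallest raw p in the tissue, and 5 genes nearest to Atf5 and Asns. Of marker genes, Mpo, Elane, Klf1 and Tfrc were named after their values were seen. Alternatives are listed with their effects at the end.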

Additional observations from a re-analysis of the deposited data

Results flagged for a closer look

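Some genes moved in opposite directions against control in the 2 tissues on every array of a dose. At 0.2 mg/ml 19.4% of all probes were lower and 19% higher without overlap in liver, and 37.9% and 36.4% in spleen. At 0.1 mg/ml these shares were 15.2% and 14.9% in liver, and 32.6% and 34.2% in spleen. The share with opposite directions was not taken over all probes, so the genes below are not a result about the members. At 0.2 mg/ml the first Asns probe was below both control livers and above the control spleen, and its response in liver minus that in spleen was -2.41 (SE 1.08). For the second Asns probe this was -1.51 (SE 0.80) and for Eif4ebp1 -0.82 (SE 0.31). These differences of 0.2 mg/ml contain the liver comparison that chose Atf5 and Asns and were not tested here. At 0.1 mg/ml Fgf21 was above both control livers and below the control spleen, with a response in liver minus spleen of 0.50 (SE 0.24), which did not pass (adjusted p = 0.559, limma). All spleen responses rest on 1 control array.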

How the results depend on the processing

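The limits are few arrays, a lone control spleen and member probes near background. Atf5 kept its sign under all 15 alternatives in liver at 0.2 mg/ml minus control, from -1.96 to -1.50, and Asns under all 14, from -1.87 to -0.85. With an offset of 50, differences of dim probes shrank, as for Psat1 (-0.37) and Fgf21 (-0.27). No paired analysis was possible because the groups share no replicate numbers. A slide or scan block was not run, since the files name neither. The cause was not tested for any value below.

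With each array left out, the count of probes passing ran from 0 to 828 for liver 0.2 mg/ml minus control (828 without control replicate 25, 264 without control replicate 1), 0 to 273 for liver 0.2 minus 0.1, 0 to 411 for liver 0.1 minus control, 1 to 1202 for spleen 0.2 minus control, 1 to 2462 for spleen 0.2 minus 0.1, 1 to 2932 for spleen 0.1 minus control and 13055 to 14542 for liver minus spleen. The high spleen counts, without replicate 32 or 56, rest on the spread between 62 and 62_86 alone. For the response in liver minus spleen it ran from 0 to 93 (0.2 against control), 0 to 735 (0.1 against control) and 0 to 637 (0.2 against 0.1). Member probes lower without overlap ran from 10 to 12 (liver 0.2 minus control) and 8 to 12 (0.2 minus 0.1), and were 4 in both under the strict filter, a detection p under 0.01 on every array, which left fewer probes. More probes separate with an array of the comparison left out, and the share over all probes was not taken for these ranges or under the strict filter. Of 79 member values, 13 changed sign under at least 1 alternative, in each case with an array left out. Atf5 in liver 0.1 minus control lay between -0.28 and 0.21 (0.01 without control replicate 25, 0.21 without replicate 55), Asns there between -0.45 and 0.26 (0.11 without control replicate 1, 0.26 without replicate 55), and Atf5 in spleen turned without replicate 62 (0.19 against control, 0.00087 against 0.1 mg/ml), where the lowest values were -0.35 and -0.54 without replicate 62_86. The others were the dimmer Ddit3 probe in liver 0.2 minus control (-0.16 without control replicate 25), Trib3 ILMN_1225528 there (0.04 without replicate 85), both Atf4 probes in liver 0.2 minus 0.1 (0.10 without replicate 85, 0.07 without replicate 55), both Trib3 probes (0.38 and 0.07) and Chac1 (-0.12) there without replicate 43, and the Ddit3 responses at 0.2 against control (up to 0.14 and 0.12 without control replicate 1).

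Counts of passing probes under other settings were as follows. Liver 0.2 mg/ml minus control, with 0, gave 1 under 75th percentile scaling and 6 with a trended, robust moderation. Liver 0.2 minus 0.1, with 0, gave 2 under 75th percentile scaling, 4 with the authors' normalized values, 1 under the strict filter, 5 with all arrays fitted together and 4 with trended moderation. Spleen 0.2 minus control, with 0, gave 82 with all arrays together and 7 with trended moderation, and spleen 0.1 minus control, with 0, gave 62 with all arrays together. Spleen 0.2 minus 0.1, with 1, gave 59 with all arrays together and 0 without background correction, under 75th percentile scaling, with the authors' values, an offset of 50, no filter, the strict filter or replicates 62 and 62_86 averaged. Liver minus spleen, with 14041, gave 7364 under the strict filter, and 11244 without the 0.2 mg/ml groups (chosen after seeing the data), where the calls of Asns and 1 Ddit3 probe were lost. Its response at 0.2 against control, with 9, gave 18 without background correction and with the authors' values, 22 with an offset of 50, 24 with no filter, 5 under the strict filter, and 0 under 75th percentile scaling or with 62 and 62_86 averaged. At 0.1 against control, with 0, it gave 11 with an offset of 50 and 3 with no filter. At 0.2 against 0.1, with 1, it gave 2 without background correction, with the authors' values and with trended moderation, 4 with an offset of 50, and 0 under 75th percentile scaling, no filter, the strict filter or the averaged arrays.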

Other observations

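In spleen the wider pathway lists had no gene past the adjusted threshold in any dose comparison, and replicate 32 was again high for several genes. Ppp1r15a, which directs a phosphatase to eIF2, read 6.86 and 7.20 at 0.2 mg/ml, against 8.47 and 9.76 at 0.1 mg/ml (difference -2.09, SE 0.42, adjusted p = 0.538), with the higher value in replicate 32. Slc6a9 read 6.54 and 6.51, against 7.64 and 9.80 (difference -2.19, SE 0.63, adjusted p = 0.544), again with replicate 32 at the top, and the difference was -1.12 without it. Eif2ak1, the heme-regulated eIF2 kinase of red cell precursors, read 7.43 and 7.67, against 8.61 and 9.12 (difference -1.31, SE 0.26, adjusted p = 0.538).

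The endoplasmic reticulum chaperones ran the other way in the same comparison, with 14 of 16 genes higher at 0.2 than at 0.1 mg/ml. Their median was 0.23, beside -0.03 over all named genes, of which 53.9% were lower. Of the 16 genes, 6 were higher without overlap, where 20.5% of all probes were. Calr, a calcium-binding chaperone, read 8.81 and 8.56 at 0.2 mg/ml, against 7.20 and 7.86 at 0.1 mg/ml (difference 1.16, SE 0.28, adjusted p = 0.539), and Xbp1, the factor of the unfolded protein response and of plasma cells, 10.42 and 10.74, against 9.96 and 9.97 (difference 0.62, SE 0.23, adjusted p = 0.556). Both spleens at 0.2 mg/ml were above both at 0.1 mg/ml for these genes. The aminoacyl-tRNA synthetases, lower at 0.2 mg/ml in liver, had 7 of 12 genes lower at 0.2 mg/ml than in the control spleen, with a median of -0.07. Of all named genes 49.3% were lower in this comparison. The difference between the tissues was not tested for the list.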
